A study of Drosophila melanogaster with 65 samples.

Results

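The miRNAs of OSS cells were compared with those of wild-type ovaries of Drosophila melanogaster, both as the level of each miRNA and as the share of its reads on either arm of the hairpin. OSS cells are a cultured line that grew out of the somatic sheath of the ovary, and those used here had been given siRNA against GFP, the control of the study's knockdowns. Their small RNA was deposited as 1 table for the 3 siGFP libraries together, so it is the authors' pooled value, without a spread of its own. The ovary samples were whole ovaries, each with 1 small RNA library, from the wild-type side of 6 lines, which the labels call FITS, FlamBG, FlamKG, FPSE1, FPSE2A as well as FPSE2B. The series text describes new deletions in the flamenco promoter region in the mutant strains of this study, and the strain, age and feeding of the wild-type flies are not given in the sources used here. These 9 small RNA libraries are part of 24 in the series, which holds 65 samples in all. Nothing in the labels says that the samples were separate cultures or groups of flies, so the p-values reflect only how these samples scatter, and that scatter may be technical.

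A miRNA is cut as a hairpin from a long primary transcript, and Dicer-1 then releases a duplex of a 5′ arm and a 3′ arm. One arm is usually kept in Argonaute 1 as the guide that represses target mRNAs, while the other is mostly degraded or, for some duplexes, loaded into Argonaute 2. Fly oogenesis depends on several miRNAs, among them bantam and mir-184 in the germline and mir-318 and mir-989 in follicle cells, the somatic epithelium around each egg chamber.

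The long RNA of the same groups was used to check the labels, with 3 OSS siGFP libraries and 6 wild-type ovary libraries. They held 9080000 to 54360000 unique sense reads in OSS cells and 9680000 to 81890000 in ovaries. Most germline genes were low in OSS cells, with osk, nos and otu at or near 0. vas, which encodes a germline RNA helicase, was at 6.06 ± 1.20 CPM in OSS cells and 213 ± 53.1 CPM in ovaries (SD, n = 3 and n = 6), and osk, which encodes the posterior determinant of the oocyte, at 0.0570 ± 0.0990 CPM in OSS cells and 805 ± 264 CPM in ovaries. Of 11 germline markers 10 were lower in OSS cells by edgeR's quasi-likelihood test and none was higher, with a summed level of 62.9 to 103 CPM in OSS libraries, against 2668 to 7343 CPM in ovaries. In OSS libraries most of that sum came from bgcn, at 38.4 to 82.6 CPM, the marker that was not lower. tj, which encodes a Maf factor made in the soma of the gonads, was at 1409 ± 389.8 CPM in OSS cells and 209.8 ± 117 CPM in ovaries, and 7 of 10 somatic markers were higher and 1, ct, lower, with a sum of 3546 to 4840.3 CPM in OSS libraries, against 689 to 1621 CPM in ovaries. Muscle genes and late eggshell genes were mostly lower in OSS cells, in 6 of 7 and 7 of 8 markers. The muscle genes summed to 450.0 to 639 CPM in OSS libraries, against 674 to 3642 CPM in ovaries. In OSS libraries most of the muscle sum came from Tm1, at 345 to 575 CPM, which did not pass edgeR's test (log2 0.02, adjusted p = 0.964). The eggshell and yolk genes summed to 524 to 701 CPM in OSS libraries, against 3996 to 26119.8 CPM in ovaries. In OSS cells nearly all of the eggshell sum came from dec-1, and Cp36, Cp38 and Yp1 were at or near 0. Over all 11753 genes tested 43.4% were called, with 19.5% higher and 23.9% lower in OSS cells, and the groups did not overlap for 41.5%. In whole ovaries, fewer cells of a type and less RNA per cell cannot be told apart.

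All miRNA tables of the series, knockdown and mutant ones included, listed 216 miRNA names. The OSS siGFP and wild-type ovary tables held 214 of them, with 204 in the OSS table and 191 in at least 1 ovary table. Among these compared tables, 23 names were in the OSS one only and 10 in ovary ones only. Reads on miRNAs were 18.7% of the deposited RPM in OSS cells and 2.84% to 8.82% in ovaries, so each table was scaled to its own miRNA total and levels are given as RPMM, reads per 1000000 miRNA reads. The smallest steps between values put the pooled OSS table at about 90330000 reads. The same steps gave about 91910000 reads for FITS, 35660000 for FPSE2A and 24880000 for FPSE2B, but only about 3090000 for FlamBG, 2440000 for FlamKG and 1950000 for FPSE1. A single read was therefore worth 0.059 RPMM in OSS cells and up to 13.3 in the FPSE1 ovary. The FlamBG ovary stood apart from the other ovaries, with Pearson r of 0.835 to 0.886 to them on the log2 scale across miRNAs, against 0.897 or more among the other 5. OSS cells and ovaries correlated with r of 0.545 to 0.666. Tables of OSS cells given siRNA against Piwi, Traffic jam or Ci correlated with one another and with siGFP at 0.977 to 0.996, and they show how far OSS values moved across treatments of the same line.

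Both samples were dominated by a small set of miRNAs, and 7 of the 10 most abundant in OSS cells were also among the 10 most abundant in the ovary mean. In the sentences that follow, a set of 3 ovary values gives the lowest, the median and the highest of the 6 ovaries. mir-276a, studied for its part in olfactory memory, ranked first in both, with 19.5% of miRNA reads in OSS cells, against 10.00% to 27.8% in ovaries. mir-184, which is needed for oogenesis and early embryogenesis, was the next most abundant in ovaries, with 10.3% of miRNA reads in OSS cells, against 9.95% to 28.5% in ovaries. The OSS values of both lay within the range of the ovaries. mir-9b, of the miR-9 family, was at rank 2 in OSS cells and at rank 8 in ovaries, with 13.1% of miRNA reads in OSS cells, against 1.41% to 3.71% in ovaries, so no ovary reached the OSS value. bantam, which promotes growth and blocks cell death, was at 9.67% of miRNA reads in OSS cells, against 2.26% to 6.71% in ovaries. mir-34, known from ageing and neurodegeneration, was at 6.63% of miRNA reads in OSS cells, against 2.72% to 8.05% in ovaries, and mir-9c at 6.53% of miRNA reads in OSS cells, against 0.641% to 3.94% in ovaries. mir-92b held 6.01% of miRNA reads in OSS cells, against 0.483% to 1.49% in ovaries, and mir-92a held 2.91% of miRNA reads in OSS cells, against 0.437% to 2.01% in ovaries. mir-989, which acts in border cell migration, held 4.59% of miRNA reads in OSS cells, against 0.783% to 14.2% in ovaries, and its ovary values had a wide spread with FlamBG at the bottom. mir-11, which limits cell death driven by E2f1, held 2.55% of miRNA reads in OSS cells, against 1.26% to 2.43% in ovaries. mir-14, a regulator of cell death and fat metabolism, held 2.43% of miRNA reads in OSS cells, against 1.26% to 3.17% in ovaries, and mir-275 held 1.95% of miRNA reads in OSS cells, against 0.911% to 1.42% in ovaries. At the other end, 4 abundant ovary miRNAs were lower in OSS cells than in every ovary, namely mir-8, mir-318, mir-10 and let-7.

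**Figure D1:**
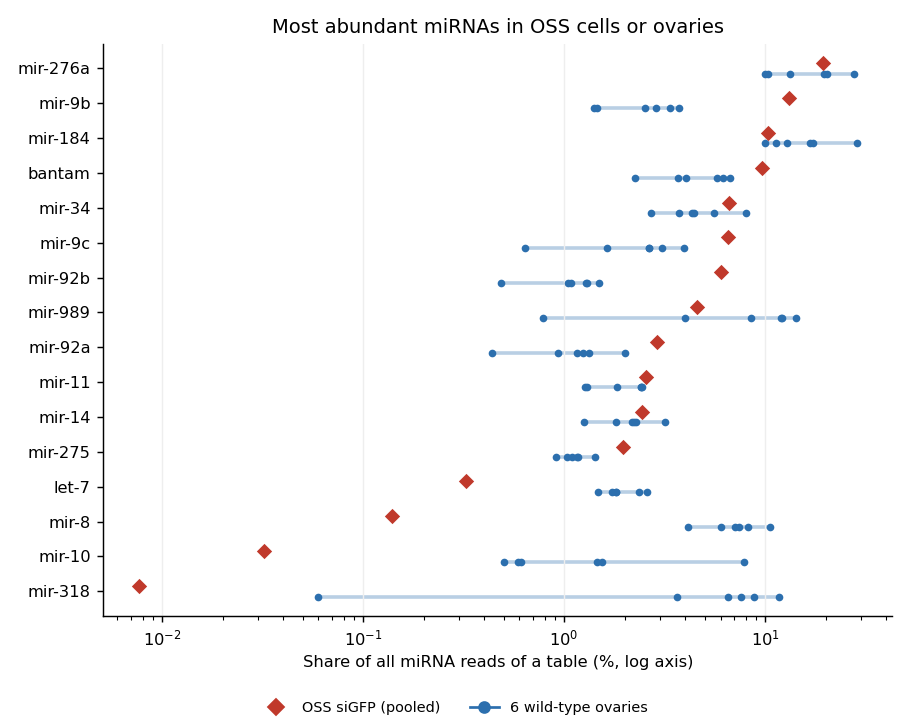
Share of all miRNA reads (%, log axis) for the 16 miRNAs among the 12 most abundant in OSS cells or in the ovary mean, sorted by the OSS value. Diamonds are the pooled OSS siGFP table and dots are the 6 wild-type ovaries joined by their range; mir-276a and mir-184 lie within the ovary range, while mir-8, mir-10 and mir-318 lie far below it.

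Of the 216 names, 92 reached 100 RPMM in OSS cells or in the ovary mean and were tested, and they held 99.9% of the OSS reads. Of these, 52 passed in both, 15 passed only through OSS cells and 25 only through ovaries. A miRNA that passed through 1 side only was kept for its high value there, so the counts below describe the 92 and are no support for a direction. This holds for 10 of the miRNAs called higher and 9 of those called lower. limma's moderated test on log2 of the level plus 10 RPMM called 36 of 92 at an adjusted p under 0.05, or 39.1%, with 18 higher in OSS cells (19.6%) and 18 lower (19.6%). The OSS arm of this test is 1 value, so its spread was not measured and was taken to be that of the ovaries, and 46 miRNAs had an unadjusted p under 0.05. The median log2 difference over the 92 was −0.28, and differences are to be read against it. It moved to 0.58 when tables were scaled by the median of ratios, to −0.17 with TMM and to 1.42 with the deposited RPM. All 18 miRNAs called higher were also called higher under each of these scalings, while 6 of the 18 lower calls held under all of them, namely mir-8, mir-263a, mir-310, mir-311, mir-312 and mir-316. With the deposited RPM the other 12 lower calls were lost, with adjusted p from 0.121 to 0.438. Of the 6 that held, all but mir-8 passed the filter only through the ovaries. Each of the other scalings raised the median difference, which favours higher calls over lower ones. The higher calls that held are therefore no separate support.

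The miRNAs lower in OSS cells included 4 of a cluster. mir-310, mir-311, mir-312 and mir-313, a young cluster of the miR-92 family reported to restrain Hedgehog signalling in ovarian somatic cells, together held 0.0176% of miRNA reads in OSS cells, against 1.55% to 3.59% in ovaries. The total counts the 7 listed names of the cluster, of which only these 4 passed the filter, each through the ovaries alone, and were called lower (19.6% of all 92 were). The other 3, mir-991, mir-992 and mir-2498, were at 1.81, 0.694 and 1.28 RPMM in OSS cells and at most 17.3, 0.684 and 8.79 in ovaries. mir-310 was at 84.7 RPMM in OSS cells, against 7991, 17801 and 22085 in ovaries (log2 −7.42, SE 0.67, adjusted p = 0.000128). mir-311 was at 31.4 RPMM in OSS cells, against 2851, 5503 and 7806 in ovaries (log2 −6.90, SE 0.71, adjusted p = 0.000235), and mir-312 at 51.2 RPMM in OSS cells, against 4209.5, 6283 and 8479 in ovaries (log2 −6.62, SE 0.61, adjusted p = 0.000128). mir-313, the least abundant of them, was at 4.96 RPMM in OSS cells, against 213, 1137 and 1357 in ovaries (log2 −5.72, SE 1.04, adjusted p = 0.00459), and its call was among those lost with the deposited RPM (log2 −2.38, adjusted p = 0.131). The lowest ovary exceeded the OSS value for each of the 4. By contrast, mir-92a and mir-92b of the same family were above every ovary.

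mir-318, which acts in follicle cells at the stage of eggshell gene amplification, and its neighbour mir-994 were low in OSS cells and abundant in 5 of 6 ovaries. Both passed the filter only through the ovaries, so their differences are a description and no support for a direction. mir-318 was at 76.9 RPMM in OSS cells, against 596, 70747 and 116919 in ovaries (log2 −8.54, SE 2.49, adjusted p = 0.0288). Its lowest ovary value came from FlamBG, and the other 5 ovaries lay between 36501 and 116919. Without the FlamKG ovary the difference of mir-318 was no longer past the threshold (log2 −8.29, adjusted p = 0.0691), nor without the filter (adjusted p = 0.1), nor with 100 RPMM added (adjusted p = 0.0665), and with the deposited RPM it was log2 −6.25 with an adjusted p of 0.121. mir-994 was at 91.9 RPMM in OSS cells, against 139, 17930.2 and 23539.8 in ovaries, and it did not pass the test (log2 −6.15, SE 2.46, adjusted p = 0.0807). FlamBG held the lowest mir-994 value too, and without that ovary the difference passed (log2 −7.27, adjusted p = 0.000417). Of the 8 eggshell and yolk genes that mark late follicle cells, 7 were lower in OSS cells in the long RNA by edgeR. dec-1 did not pass (log2 −0.913, adjusted p = 0.326). The part of these genes in the result was not tested.

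mir-8, the fly member of the miR-200 family and a regulator of growth, was at 1389 RPMM in OSS cells, against 41138, 72609 and 105736 in ovaries (log2 −5.64, SE 0.63, adjusted p = 0.000276). The let-7 complex, in which let-7, mir-100 and mir-125 are made from 1 transcript in response to the steroid hormone ecdysone, held 0.415% of miRNA reads in OSS cells, against 2.28% to 3.49% in ovaries. All 3 members were called lower (19.6% of all 92 were), and as they share a transcript they are not 3 separate observations. let-7 was at 3264 RPMM in OSS cells, against 14740.4, 18099.6 and 25726 in ovaries (log2 −2.55, adjusted p = 0.0117). mir-100 was at 557 RPMM in OSS cells, against 3065, 4696 and 8272 in ovaries (log2 −3.12, adjusted p = 0.0117), and mir-125 was at 329 RPMM in OSS cells, against 1588, 2319.5 and 3660.2 in ovaries (log2 −2.79, adjusted p = 0.0117). With the deposited RPM none of the 3 passed, at log2 −0.78 and adjusted p = 0.438 for let-7, −1.30 and 0.267 for mir-100, and −0.96 and 0.226 for mir-125. Per miRNA read, the OSS value was below every ovary for mir-8 and these 3. In the siPiwi OSS table let-7 stood at 1126, and the other 2 knockdown tables had 2590 and 3266, so the low level was seen in all 4 OSS tables.

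Other lower calls were spread over the genome. mir-316 was at 5.44 RPMM in OSS cells, against 1850.1, 2442 and 3288 in ovaries (log2 −7.35, SE 0.57, adjusted p = 0.000111). mir-263a, which protects sensory bristle cells from death, was at 63.7 RPMM in OSS cells, against 2475, 3561 and 4938 in ovaries (log2 −5.62, SE 0.60, adjusted p = 0.000235). mir-316 and mir-263a passed the filter only through the ovaries, so their differences are a description and no support for a direction. mir-10, which lies in the Hox cluster of the Antennapedia complex, was at 322 RPMM in OSS cells, against 5049, 10355 and 78923 in ovaries (log2 −5.20, SE 1.36, adjusted p = 0.022). Its call was lost with the deposited RPM (log2 −3.28, adjusted p = 0.141) and without the filter (adjusted p = 0.0696). mir-956 was at 169 RPMM in OSS cells, against 1445, 4558 and 44761 in ovaries (log2 −4.82, SE 1.51, adjusted p = 0.0358), and the highest ovary value of both mir-10 and mir-956 was that of FlamBG. The mir-956 call was lost without FITS (log2 −4.83, adjusted p = 0.0576) and without FPSE2B (log2 −4.86, adjusted p = 0.0503). It was also lost under each other scaling, without the filter, with 100 RPMM added and with the mean of the 4 OSS tables, with adjusted p from 0.0538 to 0.213. The remaining lower calls were mir-284, mir-281-1, mir-87, mir-2c and mir-31a, with log2 differences from −4.53 for mir-284 to −2.87 for mir-31a. Of these, mir-2c (log2 −2.91, adjusted p = 0.0664) and mir-31a (log2 −2.85, adjusted p = 0.0534) did not pass without FITS, and none of the 5 passed with the deposited RPM. mir-284 and mir-87 also passed the filter only through the ovaries. Leaving out FlamBG raised the number of lower calls to 24 and kept all 18.

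**Figure D2:**
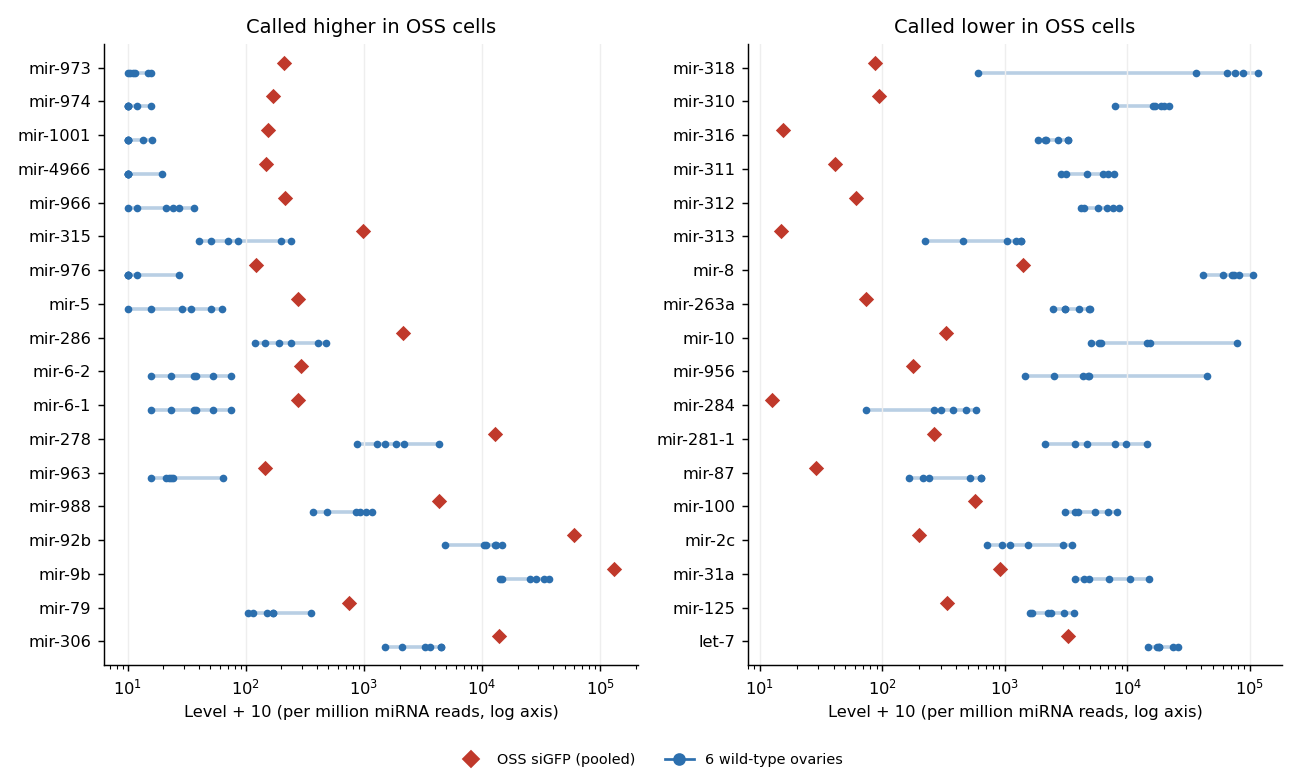
Level plus 10 RPMM (reads per 1000000 miRNA reads, log axis) of the 18 miRNAs called higher (left) and the 18 called lower (right) in OSS cells, sorted by the size of the difference. Diamonds are the pooled OSS siGFP table and dots the 6 wild-type ovaries; every diamond lies outside the range of the ovaries, and FlamBG gives the lone low dot of mir-318 and the lone high dots of mir-10 and mir-956.

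Among the miRNAs higher in OSS cells, the largest in reads came from a single locus. mir-306, mir-79, mir-9b and mir-9c lie together within the bounds of grp, which encodes the checkpoint kinase Chk1, and they held 21.1% of miRNA reads in OSS cells, against 2.27% to 8.12% in ovaries. mir-9b was at 131253 RPMM in OSS cells, against 14092, 27005 and 37107 in ovaries (log2 2.45, SE 0.71, adjusted p = 0.0288). mir-306 was at 13811 RPMM in OSS cells, against 1506, 3446 and 4515 in ovaries (log2 2.19, adjusted p = 0.0434), and mir-79 was at 731 RPMM in OSS cells, against 93.1, 149 and 345 in ovaries (log2 2.19, adjusted p = 0.0434). mir-9c was at 65269 RPMM in OSS cells, against 6407, 26478 and 39418 in ovaries, above every ovary, but did not pass the test (log2 1.62, adjusted p = 0.193). Its lowest value over the 4 OSS tables was 28067, within the range of the ovaries. The calls of this locus were close to the threshold. mir-9b had an adjusted p of 0.0534 without FITS and 0.0509 without the filter, and mir-306 and mir-79 missed the threshold in 4 of the 6 fits that left out 1 ovary.

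mir-92b was at 60132 RPMM in OSS cells, against 4834, 11838 and 14872 in ovaries (log2 2.51, SE 0.70, adjusted p = 0.0275; adjusted p = 0.0549 with all 12 ovary tables), and mir-92a, also above every ovary, was at 29134 RPMM in OSS cells, against 4366, 12023 and 20083 in ovaries without passing the test (log2 1.43, adjusted p = 0.181). Together mir-92a and mir-92b held 8.93% of miRNA reads in OSS cells, against 0.920% to 3.50% in ovaries. mir-278, which is needed for normal insulin response and fat stores, was at 12818 RPMM in OSS cells, against 863, 1684 and 4342 in ovaries (log2 2.86, SE 0.83, adjusted p = 0.0288). mir-988 was at 4304 RPMM in OSS cells, against 359.8, 878 and 1169 in ovaries (log2 2.53, SE 0.75, adjusted p = 0.0296). mir-315, an activator of Wingless signalling, was at 967 RPMM in OSS cells, against 29.8, 67.9 and 228 in ovaries (log2 3.42, SE 1.02, adjusted p = 0.0296). Without FITS the adjusted p was 0.0534 for both mir-278 and mir-315, and without the filter it was 0.075 for mir-315.

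The miR-309 cluster is known from the early embryo, where it is switched on with the zygotic genome and clears maternal mRNAs. It held 0.3% of miRNA reads in OSS cells, against 0.0133% to 0.0666% in ovaries, and 4 of its 7 listed names were tested and called higher (19.6% of all 92 were). Of these 4, mir-5, mir-6-1 and mir-6-2 passed the filter only through OSS cells, so their values are given as a description. mir-286 was at 2140.0 RPMM in OSS cells, against 109.9, 204 and 465 in ovaries (log2 3.22, SE 0.84, adjusted p = 0.022; adjusted p = 0.0519 without the filter). mir-5 was at 265 RPMM in OSS cells, against 0, 21.4 and 52 in ovaries. mir-6-1 and mir-6-2 were at 268 and 282.8 in OSS cells, against 5.72 to 64.4 in ovaries for both. These 2 near-identical copies had the same value in each ovary, so their reads cannot be assigned to one of them and they count as 1 measurement. In 2 of the ovaries, FlamBG and FPSE1, the values of mir-5 and mir-6 amount to about 1 read or none. The call of mir-5 was lost without FlamKG, without the filter and with 1 RPMM added, with adjusted p from 0.0601 to 0.118, and that of mir-6-2 without the filter (adjusted p = 0.0577). mir-3, mir-4 and mir-309 stayed under the filter.

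The mir-959 to mir-964 and mir-972 to mir-979 clusters are young and are known mainly from testis. All tested members of both passed the filter only through OSS cells, so their values are given as a description. mir-973 was at 202 RPMM in OSS cells and at most 5.72 in ovaries. mir-974 was at 161 in OSS cells and at most 5.72 in ovaries, and mir-976 at 111 in OSS cells and at most 17.3 in ovaries. The mir-972 to mir-979 cluster held 0.0693% of miRNA reads in OSS cells and at most 0.0121% in ovaries. The mir-959 to mir-964 cluster was measured in ovaries too. mir-960 was at 234 RPMM in OSS cells, against 0, 84.5 and 107 in ovaries, and mir-964 was at 226 RPMM in OSS cells, against 23.1, 58.8 and 129 in ovaries. mir-961 was at 105 RPMM in OSS cells, against 0, 17.5 and 32.8 in ovaries, and mir-963, the member of this cluster that was called, at 136 RPMM in OSS cells, against 5.72, 12.8 and 54.1 in ovaries. The OSS siGFP value was above every ovary for these 4. Over the 4 OSS tables the lowest values of mir-960, mir-961 and mir-964 were 83.4, 31.8 and 80.7 RPMM, below the highest ovary. The lowest of mir-963 was 68.6, above every ovary. The mir-963 call was lost without FITS (log2 2.50, adjusted p = 0.0617), without FlamKG (log2 2.52, adjusted p = 0.053) and without FPSE2A (log2 2.48, adjusted p = 0.0557). mir-1001, mir-4966 and mir-966 also passed only through OSS cells, at 143, 139 and 204 RPMM in OSS cells and at most 6.12, 9.31 and 26.4 in ovaries. The mir-966 call was lost with 1 RPMM added in place of 10 (adjusted p = 0.0606). mir-4966 was listed in 1 ovary, FlamKG, and at 0 in the other 5. Because OSS cells were sequenced far more deeply than 3 of the 6 ovaries, a low value in those ovaries rests on few reads. The pooled OSS table held about 16930200 miRNA reads and FITS about 2613800, so 1 read was worth 0.059 RPMM in OSS cells and 0.383 RPMM in FITS. In the FITS ovary mir-973 was at 1.05, mir-974 at 0, mir-976 at 0 and mir-1001 at 3.52.

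Many abundant miRNAs did not differ beyond the spread of the ovaries. mir-1, a miRNA of muscle, was at 11449 RPMM in OSS cells, against 5062, 16909 and 26639 in ovaries (log2 −0.22, SE 1.03, adjusted p = 0.854). mir-133, also of muscle, was at 45.6 RPMM in OSS cells, against 21.9, 262 and 564 in ovaries (log2 −1.51, adjusted p = 0.517), and neuronal mir-124 stayed under the filter. Most muscle genes were lower in OSS cells in the long RNA, and their part in the values of mir-1 and mir-133 was not tested. mir-276a (log2 0.31, adjusted p = 0.748), mir-184 (log2 −0.55, adjusted p = 0.529), mir-989 (log2 −0.43, adjusted p = 0.811), mir-14 (log2 0.23, adjusted p = 0.766) and mir-279 (log2 0.13, adjusted p = 0.854) were within the range of the ovaries. For mir-1, mir-184 and mir-989 the sign of the small difference turned positive with the deposited RPM and with the median of ratios. bantam (log2 1.11, adjusted p = 0.231), mir-11 (log2 0.44, adjusted p = 0.587) and mir-275 (log2 0.80, adjusted p = 0.239) were above every ovary, yet did not pass. With 1 OSS value against 6 ovaries the simulated test found 0% of the 2-fold changes and 16.7% of those of 4-fold. It found 61.8% of the 8-fold and 79.7% of the 16-fold ones, so 2-fold differences were not detectable. Counting without a test, the OSS siGFP value was above every ovary for 36 of the 92 miRNAs, or 39.1%, and below every ovary for 37, or 40.2%. All 4 OSS tables were above every ovary for 31 (33.7%) and below for 29 (31.5%).

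Calls within families were mixed. In the miR-9 family mir-9b and mir-79 were higher, mir-9c and mir-9a did not pass, and mir-9a had the opposite sign with 186 RPMM in OSS cells, against 389.7, 986 and 5435 in ovaries (log2 −2.60, adjusted p = 0.114). In the miR-2 family 2 of 7 tested members were higher (mir-6-1 and mir-6-2), 1 was lower (mir-2c) and 4 did not pass, with a median log2 of −0.22, beside 19.6% higher, 19.6% lower and a median of −0.28 over the 92. The 2 higher ones are the copies with equal ovary values. The miR-92 family had 1 higher member, 4 lower ones and 1 that did not pass. None of the 3 members of mir-12, mir-283 and mir-304 passed, nor did the pairs mir-275 with mir-305 and mir-11 with mir-998, nor mir-34, mir-277 and mir-317. mir-277 was at 1991 RPMM in OSS cells, against 1164, 5366 and 13583 in ovaries, and its ovary values split into a set of 3 low ones and a set of 3 high ones. The high ones were FlamBG, FlamKG and FPSE1, which are also the 3 shallowest ovary tables, and the same 3 were highest for mir-1 and mir-133. mir-305, which acts in intestinal stem cells, was at 14316 RPMM in OSS cells, against 3012, 5271 and 9358 in ovaries (log2 1.43, adjusted p = 0.13), and mir-7, which acts in eye development, was at 2101 RPMM in OSS cells, against 3146, 6319 and 10225 in ovaries (log2 −1.56, adjusted p = 0.114).

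The share of each miRNA on its 5′ arm was compared for the 52 miRNAs at 100 RPMM or more in both OSS cells and the ovary mean. The tested value was log2 of the 5′ over the 3′ arm, each plus 10 RPMM, with a positive difference meaning more 5′ arm in OSS cells. limma called 20 of 52, or 38.5%, with 13 toward the 5′ arm (25%) and 7 toward the 3′ arm (13.5%). Without FPSE1, the shallowest ovary, 19 were called toward the 5′ and 14 toward the 3′ arm, and with 1 RPMM added in place of 10 the counts were 6 and 3. The cause was not tested. The 5′ share itself was above all 6 ovaries for 25 of the 52 (48.1%) and below all of them for 14 (26.9%). In 4 miRNAs the arm with more reads in OSS cells was not the arm with more reads in any of the 6 ovaries. The 5′ share of mir-965, which limits string and wingless in other tissues, was 81.7% in OSS cells, against 4.30, 15.5 and 34% in ovaries (log2 4.11, SE 0.91, adjusted p = 0.0158). For mir-278 it was 78.2% in OSS cells, against 9.32, 32 and 40.7% in ovaries (log2 3.31, SE 0.98, adjusted p = 0.0219), and for mir-317, a neighbour of mir-34 and mir-277, it was 71.6% in OSS cells, against 12.6, 24.7 and 41.9% in ovaries (log2 2.98, SE 0.81, adjusted p = 0.0219). mir-10 went the other way, with a 5′ share of 30.0% in OSS cells, against 54.1, 60.3 and 81.7% in ovaries, and did not pass (log2 −2.08, SE 0.82, adjusted p = 0.0574). The 5′ share of mir-965, mir-317 and mir-10 was on the same side of 50% in all 4 OSS tables, while that of mir-278 was 48.6% in the siTj table.

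A larger number of miRNAs changed arm balance without crossing 50% in every sample. mir-988 had 5′ and 3′ arms in near balance in ovaries, and its 5′ share was 91% in OSS cells, against 40.7, 48.5 and 53.6% in ovaries (log2 3.47, SE 0.63, adjusted p = 0.00503). mir-2a-1 had a 5′ share of 34.1% in OSS cells, against 2.02, 5.48 and 9.76% in ovaries (log2 3.22, SE 0.84, adjusted p = 0.0208). mir-12 moved toward its 3′ arm, with a 5′ share of 92.4% in OSS cells, against 99.6, 99.8 and 100% in ovaries (log2 −3.99, SE 0.62, adjusted p = 0.00297), and so did mir-9a, with 52% in OSS cells, against 83.4, 88 and 94.1% in ovaries (log2 −2.79, SE 0.76, adjusted p = 0.0219). The 3′ arm of mir-12 held only 0 to 15.5 RPMM in ovaries, so the size of its log2 difference depends on the added 10 RPMM. The 5′ shares of mir-8 were 8.36% in OSS cells, against 1.02, 1.95 and 3.10% in ovaries (log2 2.38, SE 0.77, adjusted p = 0.0313), and those of mir-998 were 21.8% in OSS cells, against 2.78, 4.59 and 7.10% in ovaries (log2 2.11, SE 0.71, adjusted p = 0.0362). In mir-8 the arm balance therefore moved in a miRNA whose level was far lower in OSS cells, and in mir-278 and mir-988 in miRNAs whose level was higher. mir-8 lost the call without FPSE2A (log2 2.33, adjusted p = 0.0553) and without FPSE2B (log2 2.25, adjusted p = 0.058). mir-998 lost it without the same ovaries (log2 2.12, adjusted p = 0.0652 without FPSE2A).

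**Figure D3:**
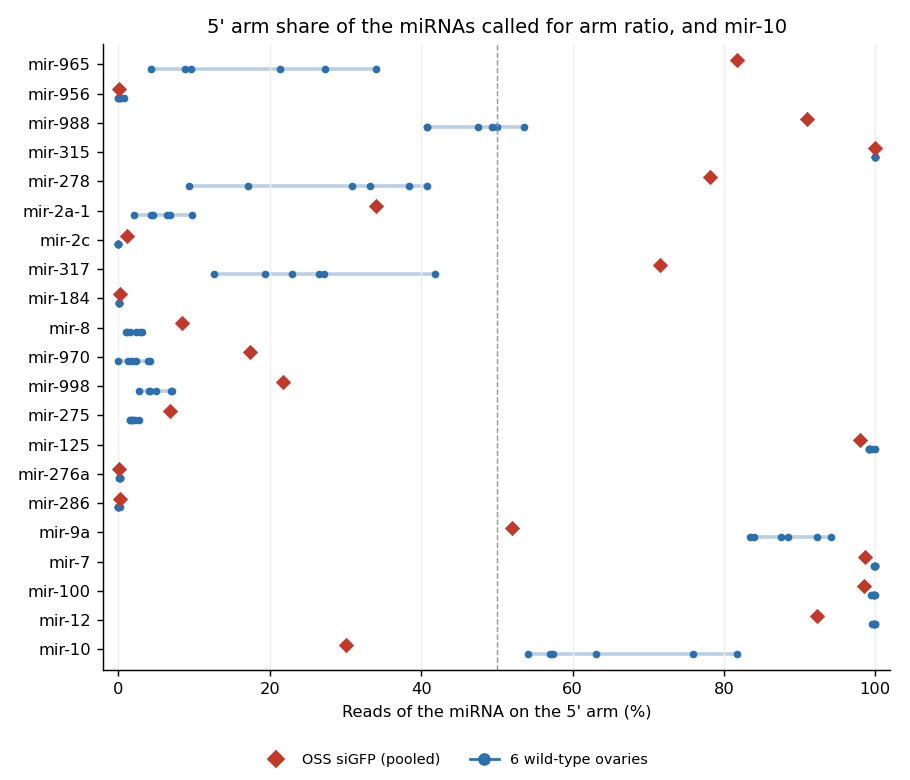
Percent of a miRNA's reads on its 5′ arm for the 20 miRNAs called for arm ratio and for mir-10, sorted by the log2 difference. Diamonds are the pooled OSS siGFP table, dots the 6 wild-type ovaries and the dashed line marks 50%; mir-965, mir-278, mir-317 and mir-10 have the diamond and all dots on opposite sides of that line.

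Some of these calls rest on an arm with next to no reads. mir-956 had 0.107 RPMM on its 5′ arm in OSS cells, and its 5′ share lay within the range of the ovaries although its ratio was called. mir-315 was called toward the 5′ arm while its 5′ share was 99.97% in OSS cells and 100% in every ovary, and mir-286 was called toward the 3′ arm while its 5′ share was above every ovary. In all 3 the lesser arm of OSS cells was under the added 10 RPMM. The same held for mir-2c, mir-100 and mir-125, which were also called, with 2.13, 8.16 and 6.78 RPMM on that arm. In a fit chosen after seeing the data, with each arm required at 10 RPMM or more in OSS cells and in the ovary mean, 33 miRNAs were tested and 17 passed, or 51.5%. Of those 17, 11 were among the first 20 and 6 were added, namely let-7, mir-10, mir-11, mir-277, mir-34 and mir-79. The rest of the first 20 did not meet the requirement and were not tested in that fit. They were mir-7, mir-12, mir-100, mir-125, mir-286, mir-2c, mir-315, mir-956 and mir-970. mir-965, mir-988, mir-278, mir-2a-1 and mir-317 stayed past the threshold there, with adjusted p from 0.00546 to 0.0161.

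In most of the 52 miRNAs the arm that was lower in ovaries held a larger share in OSS cells. For each of the 52 the lesser arm was taken as the arm with fewer reads in the ovary mean, which was the 5′ arm in 32 and the 3′ arm in 20. The lesser arm took 5.74% of the reads of these miRNAs in OSS cells and 1.26% to 4.4% in ovaries. Its median share per miRNA was 3.64% in OSS cells and 0.586% to 1.69% in ovaries. OSS cells were above all 6 ovaries in lesser-arm share for 37 of 52 miRNAs (71.2%), below all for 2 (3.85%) and within the range for 13. All 4 OSS tables were above every ovary for 32 of the 52. Choosing the lesser arm from the ovaries favours a low ovary share, so the count was also made with the arm that was lesser in OSS cells, and then OSS cells were above all ovaries for 30 and below all for 9. The 2 exceptions were mir-276a, whose 5′ share was 0.0200% in OSS cells, against 0.114, 0.160 and 0.249% in ovaries (log2 −2.73, SE 0.68, adjusted p = 0.0191), and mir-986. The siPiwi, siTj and siCi tables had 4.95%, 5.43% and 5.61% of reads on the lesser arm. The miRNA reads behind these shares were fewer in every ovary than in the OSS tables, and the part of depth in the difference was not tested.

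**Figure D4:**
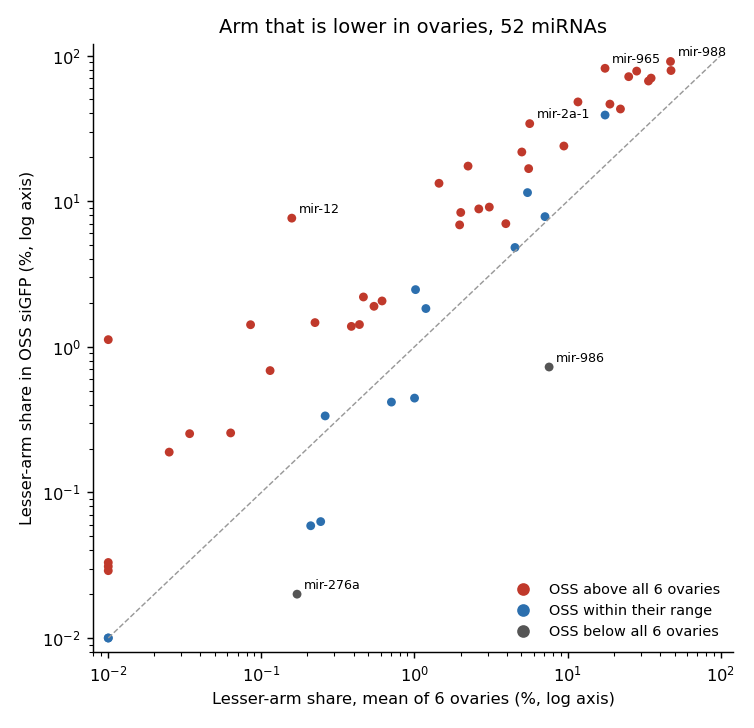
Share of reads on the arm that was lower in the ovary mean, for 52 miRNAs, in the pooled OSS siGFP table (vertical, %, log axis) against the mean of the 6 ovaries (horizontal, %, log axis); the dashed line marks equal shares and values under 0.01% are drawn at 0.01%. Red points, 37 of 52, are above all 6 ovaries, and the 2 grey points below all of them are mir-276a and mir-986.

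The long RNA gave a separate measure of the genes that miRNAs come from, in libraries the miRNA comparison did not use. Gene bounds were compared with miRNA positions in the reference table, and the strand of the miRNAs was not available, so a gene around a miRNA need not be its host. Of the listed genes named as primary transcripts of a tested miRNA, 13 passed the count filter and 6 did not, and edgeR called 2 higher and 3 lower in OSS cells against 19.5% and 23.9% of all genes. pri-mir-315 (CR45388) had 11.2, 3.18 and 3.99 CPM in the OSS libraries, against 0.197, 0.352 and 1.67 CPM in ovaries (log2 3.13, SE 0.78, adjusted p = 0.00738), and mir-315 was higher too. pri-mir-316 (CR45920) had 0, 0.0340 and 0 CPM in the OSS libraries, against 0, 0.637 and 1.29 CPM in ovaries (log2 −4.98, SE 1.45, adjusted p = 0.0164), and pri-mir-263a (CR43314) had 0, 0.344 and 0 CPM in the OSS libraries, against 2.26, 4.30 and 8.01 CPM in ovaries (log2 −4.94, SE 1.13, adjusted p = 0.00436), and both of these miRNAs were lower. All OSS libraries were above every ovary for pri-mir-315 and below every ovary for pri-mir-263a, while pri-mir-316 overlapped because the FlamBG ovary was at 0. Without OSS replicate 3 pri-mir-316 did not pass (adjusted p = 0.0603).

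Of the 15 tested pairs of a miRNA and a primary transcript, 1 was called higher in both, 2 lower in both and 6 in neither. In 2 pairs only the transcript was higher and in 1 only the transcript was lower. The miRNA alone was higher in 1 pair and lower in 2. Several transcripts with a call unlike that of the miRNA follow. pri-mir-1 (CR45361) had 0 reads in the 3 OSS libraries and 13 to 75 reads in each ovary, so it was at least 29-fold lower in OSS cells against a floor of 3 counts over the group (log2 −8.20, SE 1.37, adjusted p = 0.00111), while mature mir-1 was within the ovary range. pri-mir-277_mir-34 (CR43459) had 2.81, 1.29 and 3.11 CPM in the OSS libraries, against 0.250, 0.609 and 1.21 CPM in ovaries (log2 1.83, SE 0.59, adjusted p = 0.0264), and neither mir-277 nor mir-34 passed the test. Its call was lost without OSS replicate 1 (adjusted p = 0.0894) and without OSS replicate 3 (adjusted p = 0.102). pri-mir-92b (CR45917) had 0, 0.120 and 0.452 CPM in the OSS libraries, against 0.202, 0.324 and 0.502 CPM in ovaries (log2 −0.60, SE 0.87, adjusted p = 0.604), and mir-92b was higher. pri-mir-10 (CR42651) had 0, 0.275 and 0.133 CPM in the OSS libraries, against 0.123, 0.367 and 1.53 CPM in ovaries (log2 −1.71, SE 1.06, adjusted p = 0.215), and mir-10 was lower. pri-mir-184 (CR44206) and pri-mir-276b_mir-276a (CR46006) had 13.7 ± 3.13 and 16.8 ± 4.13 CPM in OSS cells, against 12.5 ± 7.42 and 10.8 ± 1.69 CPM in ovaries (SD). Neither passed, and neither did mir-184 or mir-276a. The transcript of the miR-309 cluster (CR44504) was at 0 in all 9 libraries, and pri-mir-8 (CR43650) was at 0.0340 CPM or less in OSS cells and 0.377 CPM or less in ovaries, under the filter.

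Among the 37 tested genes around a miRNA, 11 were higher and 9 lower, beside the 19.5% and 23.9% of all genes. grp had 741, 481 and 517 CPM in the OSS libraries, against 134, 172 and 246 CPM in ovaries (log2 1.70, SE 0.27, adjusted p = 0.000439), and mir-306, mir-79 and mir-9b within its bounds were higher. CG42524, around mir-278, had 163, 55.2 and 72.2 CPM in the OSS libraries, against 13.3, 15.1 and 21.4 CPM in ovaries (log2 2.56, SE 0.34, adjusted p = 0.000125), and tau, around mir-1001, had 16.5, 13.9 and 21.7 CPM in the OSS libraries, against 2.26, 5.04 and 9.22 CPM in ovaries (log2 1.76, SE 0.41, adjusted p = 0.00519). These 3 genes were above every ovary in each OSS library. Octbeta2R, which encodes an octopamine receptor and lies around mir-284, had 0, 2.54 and 0.452 CPM in the OSS libraries, against 60.6, 109 and 165 CPM in ovaries (log2 −6.53, SE 0.92, adjusted p = 0.000206), and mir-284 was lower. CR45949, around mir-87 (log2 −5.82, SE 1.15, adjusted p = 0.00184), and Oda, around mir-281-1 (log2 −2.91, SE 0.61, adjusted p = 0.00276), were lower, as were the miRNAs within their bounds. CR46194 also lies around mir-281-1 and did not pass (log2 −0.936, SE 0.429, adjusted p = 0.0978). CR45912, around mir-315, did not pass either (log2 0.345, SE 0.965, adjusted p = 0.795), while mir-315 was higher. Gmap, a Golgi protein gene around mir-12, mir-283 and mir-304, had 631, 684 and 836 CPM in the OSS libraries, against 86.2, 154 and 181 CPM in ovaries (log2 2.35, SE 0.29, adjusted p = 7.97e-05), but none of the 3 miRNAs passed. SREBP, the regulator of lipid synthesis around mir-33, was also higher (log2 2.07, SE 0.33, adjusted p = 0.000439), and mir-33 did not pass (log2 0.74, adjusted p = 0.467). Over the 46 pairs of a tested miRNA with such a gene, 5 were called higher in both, 3 lower in both and none in opposite directions, while in 17 the gene was called and the miRNA was not. The pairs higher in both include grp with each of mir-306, mir-79 and mir-9b, so pairs that share a gene are not independent. Calls that miss the threshold do not show that the miRNA and the gene differ in their change.

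**Figure D5:**
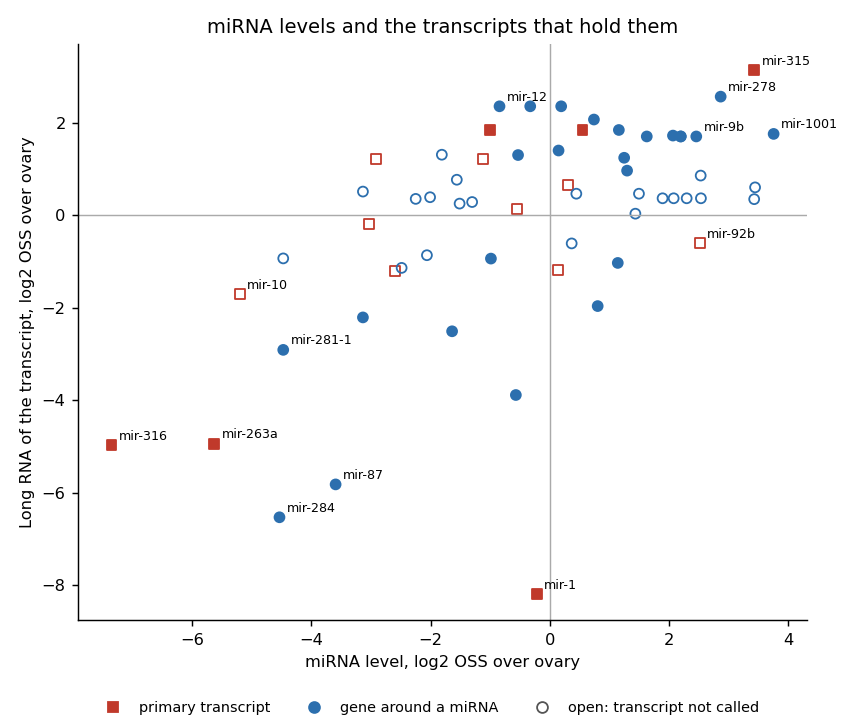
Log2 OSS over ovary of the long RNA of a transcript (vertical) against that of the miRNA (horizontal), 1 point for each pair of a tested miRNA and a tested primary transcript (squares) or gene around the miRNA (dots). Filled points are transcripts called by edgeR. At the upper right lie mir-315, mir-278 and mir-9b, and at the lower left mir-316, mir-263a, mir-284 and mir-87. The transcript of mir-1 is far lower in OSS cells with little difference in the miRNA. The further points of mir-315 (CR45912) and mir-281-1 (CR46194) are open and carry no label.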

How the data were processed

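Small RNA tables hold RPM values on the 5′ and the 3′ arm of each miRNA, as deposited by the authors, with 1 table for the 3 OSS siGFP libraries and 1 for each ovary library. The total they were divided by is not stated in those sources that were used. Long RNA tables hold raw read counts per gene deposited by the authors, and the unique sense counts over the whole locus were used. Bowtie2, DESeq2, FastQC and MACS2 are named in the submitters' processing notes, without versions there. Small RNA libraries were made with an NEBNext kit, per the labels' protocols.

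The arms of a miRNA were added and scaled to 1000000 miRNA reads per table (RPMM). miRNAs at 100 RPMM or more in OSS cells or in the ovary mean were tested as log2(level + 10) with limma 3.58.1 in R 4.3.3, and arm ratios where both sides reached 100. Long RNA was tested with edgeR 4.0.16 (quasi-likelihood, TMM, filterByExpr) over 3 OSS and 6 ovary libraries, with DESeq2 1.42.0 as an alternative. Adjusted p are Benjamini-Hochberg values over all features tested, called under 0.05, and all tests are two-sided. Log2 differences are OSS over ovary, and those of miRNAs understate the change of low ones because of the added 10. All 216 miRNA names matched the RefSeq gene table of Release 6, which was used for names and neighbours only. It was meant to match hosts by strand, but the table gives none, so any gene whose bounds hold the miRNA was taken. Named were the 12 most abundant miRNAs on each side, the 10 largest called differences in each direction, the 10 largest arm changes and arm switches, members of fixed lists, and their transcripts; other calls are named as remaining. The members and lists were chosen with earlier results of these data known. On simulated counts over 11038 genes, edgeR found 4% of the 2-fold changes, 62% where the change was 4-fold and 98% where it was 8-fold. Mature sequences are not given here.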

Additional observations from a re-analysis of the deposited data

Results flagged for a closer look

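In 65 sets of 6 ovary values, 9 had 1 ovary whose gap to the nearest other exceeded Dixon's critical value as a share of the whole range. Gap and range were taken on log2 of the value plus 10 RPMM, with shares of reads expressed in RPMM. The values printed below are untransformed, so the gaps cannot be judged from them directly. Chance alone gives such a gap in about 1 in 20 independent sets. These sets share the same 6 ovaries and some overlap, such as mir-318 alone and with mir-994, so 9 of 65 cannot be set against that rate. In 8 of the 9 flagged sets the ovary that stood apart was FlamBG. mir-318 was at 595.6 RPMM (reads per 1000000 miRNA reads) in FlamBG, with the other ovaries at 36501 to 116919, and mir-318 with mir-994 held 0.0734% of reads there, with 4.25% to 13.8% in the others. mir-310 was at 7991 in FlamBG and 16325 to 22085 in the others. mir-92b was at 4834 in FlamBG and 10461 to 14872 in the others, and the whole miR-92 family held 2.47% there and 5.57% to 5.95% in the others. mir-956 was high in FlamBG, at 44761, with 1445 to 4891 in the others. mir-976 was at 17.3 in FlamBG and at most 1.93 in the others, and the mir-972 to mir-979 cluster held 0.0121% there and at most 0.0006% in the others. The remaining set was mir-4966, at 9.31 in FlamKG and listed at 0 in the other 5. The values of mir-976 and mir-4966 are a few reads each at the depth of those tables.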

How the results depend on the processing

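No paired analysis was possible because the OSS miRNA table is pooled and the replicate numbers of OSS cells and ovaries mark no shared sample. Leaving out 1 ovary at a time gave 12 to 18 higher and 15 to 24 lower miRNAs, and 10 to 19 arm calls toward the 5′ and 6 to 14 toward the 3′ arm. Leaving out 1 long RNA library gave 1802 to 2392 higher and 2060 to 2731 lower genes, and 1 to 2 higher and 2 to 3 lower primary transcripts. A filter at 1000 RPMM left 6 higher miRNAs and 6 and 3 arm calls toward the 5′ and the 3′ arm, with fewer miRNAs tested. The deposited RPM gave 28 higher and 6 lower, and the median of ratios 29 higher. For arm calls, a pseudocount of 1 gave 6 and 3, 8 went toward the 5′ arm with the mean of the 4 OSS tables, 12 toward the 3′ arm without a filter, and 13 toward the 3′ arm with all 12 ovary tables, mutant ones included. With the 3 deepest ovaries only, a choice made after seeing the data, 29 miRNAs were lower and 23 and 16 arm calls went toward the 5′ and the 3′ arm. Without a filter beyond 1 read, 1 primary transcript was higher. Beyond the number of miRNAs or samples in a fit, the cause was not tested. Signs reversed for differences that had not passed the test. mir-184 was at 1.21 with the deposited RPM and 0.30 with the median of ratios, and mir-989 at 1.34 and 0.43. Over the fits that left out 1 library, jigr1 lay between −0.125 and 0.197, CR17025 between −0.531 and 0.241, CR44206 between −0.134 and 0.389, CR45912 between −0.056 and 0.901 and spi between −0.362 and 0.696. jigr1 was at −0.001 without a filter. The higher call of pri-mir-277_mir-34 was lost without OSS replicate 1 and without OSS replicate 3. Depth limits the 3 shallow ovary tables, where 1 read is worth 4.66 to 13.3 RPMM.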
